A study of Mus musculus with 7 samples.

Results

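The Gimap genes (GTPases of the immunity-associated protein family) were read in T cells sorted from the mouse thymus. All 8 genes of the family considered here were on the array, Gimap1, Gimap3, Gimap4, Gimap5, Gimap6, Gimap7, Gimap8 and Gimap9, out of 18193 genes named in all, and they were represented by 11 of 34945 probe sets that carry exactly 1 gene symbol. Gimap4, Gimap6 and Gimap7 had 2 probe sets each, and the brightest by its mean over all arrays gave a gene's main value. There were 7 arrays of cells from mice of 4 to 6 weeks on a C57BL/6J background. Of these, 3 held stage 1 natural killer T (NKT) cells of mice that carried a Valpha14 T cell receptor transgene and the Luxoid mutation, which hits Zbtb16 and so the transcription factor PLZF that it encodes. Another 2 held stage 1 NKT of mice with the same transgene and no Luxoid mutation. The last 2 held CD4SP cells, thymocytes with CD4 and without CD8, of wild-type mice that carried neither the transgene nor the mutation. NKT cells recognise lipids on CD1d, and the stage 1 cells were gated as CD1d tetramer-positive with low CD24 and without CD44 or NK1.1. The mutant mice are labelled PLZF-deficient. Every sample was a pool of mice. Since both NKT groups carried the transgene and the CD4SP cells did not, transgene and cell type cannot be told apart in a comparison with CD4SP. In sorted populations, fewer cells that express a gene and less RNA per cell cannot be told apart either.

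Gimap proteins share a GTP-binding domain of the AIG1 type and are found mainly in lymphocytes, where many of them sit on membranes of mitochondria, lysosomes, the endoplasmic reticulum or the Golgi apparatus. Mice without Gimap1 or Gimap5 lose peripheral T cells, and rats with a truncated Gimap5 are lymphopenic, so the family is known for its role in the survival of resting T cells. In the thymus several members are known to rise as double-positive cells become single-positive. The genes lie side by side on mouse chromosome 6, in the order Gimap8, Gimap9, Gimap4, Gimap6, Gimap7, Gimap1, Gimap5, Gimap3 in the RefSeq table of GRCm38.p6, with 0 other protein-coding genes among them.

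Because the genes are neighbours and differed in how far they moved, the 250 bases before the RefSeq start site are shown for 4 of them. Gimap7 and Gimap3 had the largest differences from CD4SP, and Gimap5 and Gimap1 were the members that passed in no comparison. The windows in GRCm38.p6 were chr6:48718371-48718620 on the plus strand for Gimap7, chr6:48770852-48771101 on the minus strand for Gimap3, chr6:48745947-48746196 on the plus strand for Gimap5, and chr6:48738797-48739046 on the plus strand for Gimap1. Each is written from 5′ to 3′ on the gene's own strand. Capitals mark every match, on either strand, to AGGAAG (an ETS-type core), TGTGGT (Runx), CAGGTG (an E-box), CTTTGA (TCF/LEF), GTAAACA (Foxo) or CCACCC (KLF).
Gimap7: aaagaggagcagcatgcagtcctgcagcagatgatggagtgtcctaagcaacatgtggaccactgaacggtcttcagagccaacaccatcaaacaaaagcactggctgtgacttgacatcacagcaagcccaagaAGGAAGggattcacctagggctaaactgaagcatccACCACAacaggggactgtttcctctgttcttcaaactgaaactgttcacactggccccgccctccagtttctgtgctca
Gimap3: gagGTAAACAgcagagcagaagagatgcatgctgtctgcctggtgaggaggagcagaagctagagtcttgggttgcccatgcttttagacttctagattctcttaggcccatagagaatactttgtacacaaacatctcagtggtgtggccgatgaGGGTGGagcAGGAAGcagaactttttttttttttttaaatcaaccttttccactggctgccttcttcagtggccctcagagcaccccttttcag
Gimap5: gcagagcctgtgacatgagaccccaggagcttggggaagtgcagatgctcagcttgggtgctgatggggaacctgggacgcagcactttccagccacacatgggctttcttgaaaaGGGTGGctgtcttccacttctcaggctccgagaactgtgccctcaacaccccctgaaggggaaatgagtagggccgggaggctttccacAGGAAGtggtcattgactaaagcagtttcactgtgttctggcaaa
Gimap1: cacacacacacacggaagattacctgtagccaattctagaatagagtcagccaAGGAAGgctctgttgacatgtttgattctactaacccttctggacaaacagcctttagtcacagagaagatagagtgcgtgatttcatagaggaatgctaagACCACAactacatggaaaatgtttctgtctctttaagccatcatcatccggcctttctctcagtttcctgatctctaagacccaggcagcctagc
Over the 9 start sites that RefSeq lists for the 8 genes, of which Gimap8 has 2, the letters AGGAAG stood in 7, against 29.5% of all 32851 promoter windows of the same length. CCACCC stood in 5 of the 9, against 28.1% of all windows, and TGTGGT in 3, against 14.0%. CAGGTG was found in 1 window, that of Gimap9 (17.2% of all windows), GTAAACA in 1, that of Gimap3 (3.2%), and CTTTGA in 0 (13.8%). The letters did not divide the genes by their response: AGGAAG was present before Gimap7 and Gimap3 and also before Gimap5 and Gimap1, and only Gimap6 had it at no start site. No matched letters overlapped in the 4 windows printed. The matches are letters in a sequence, and binding was not measured here.

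Arrays were alike, with medians of 79.6 to 83.7 and correlations of log2 values over all probe sets of 0.984 to 0.990 among Luxoid arrays, 0.992 between the NKT arrays and 0.991 between the CD4SP arrays. Across groups, Luxoid and NKT arrays correlated at 0.981 to 0.992, which overlaps the values within these groups. With CD4SP arrays the correlations were 0.968 to 0.979 for Luxoid NKT and 0.972 to 0.977 for NKT. Zbtb16 was 1857, 2774 and 2645 in Luxoid NKT and 2751 and 3488 in NKT, against 87.3 and 61.8 in CD4SP. The transcript therefore marked the NKT arrays, and its level does not check the loss of PLZF protein. The cell type label of the CD4SP samples repeats the NKT gate, and their titles, source names and descriptions, which all give CD4SP, were followed. The pools differed in sex: Y-linked Kdm5d was 8.28, 1745 and 758 in Luxoid NKT, 6.49 and 1120 in NKT and 11.7 and 2331 in CD4SP. The 3 arrays numbered 1 thus lacked Y-linked signal in every group. Xist was 36.1 in Luxoid array 2 and 29.0 in CD4SP array 2, against 3888 to 6723 in the others. Luxoid array 3 and NKT array 2 thus held both Xist and Y-linked signal. Summed over 7 markers of double-positive thymocytes, of which 3 reached the intensity filter, the arrays read 418 to 574 in Luxoid NKT and 316 to 325 in NKT, against 927 to 1075 in CD4SP. Dntt was at most 120 in any NKT array, against 461 and 527 in CD4SP, while Rag1 and Rag2 were under the filter of 82.0 in all 7 arrays. Markers of more mature NKT, 4 of 5 on the array, summed to 4511 to 4976 in Luxoid NKT and 2802 to 3186 in NKT, against 956 to 1049 in CD4SP. The B cell sum was 302 to 412 in Luxoid NKT and 333 to 369 in NKT, against 292 to 303 in CD4SP (4 of 5 on the array), and its members ran in opposite directions. Cd79b was called higher than in CD4SP (1.65 in Luxoid NKT and 1.69 in NKT) and Cd79a lower (-0.75 in Luxoid NKT and -0.82 in NKT). The myeloid sum was 1058 to 1432 in Luxoid NKT and 1387 to 1634 in NKT, against 1094 to 1199 in CD4SP (all 5 on the array, 2 reaching the filter). Most of it was Cst3, which read 801 to 1394 over the 7 arrays and was called in no comparison. Thymic epithelial markers summed to 203 to 289 in Luxoid NKT and 165 to 189 in NKT, against 220 to 262 in CD4SP, and the 2 erythroid markers on the array did not reach the filter. The part of these markers in the Gimap results was not tested.

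The comparison of stage 1 NKT with CD4SP asked how the family stands in innate-like against conventional T cells. The NKT cells had less transcript of most of the family. Of 8 members, all of which passed the intensity filter in all 7 arrays, 5 were lower in NKT at an adjusted p under 0.05 (limma, Benjamini-Hochberg over 10874 genes), 0 were higher and 3 did not pass. Over all genes 4.08% were called lower, 10.8% higher and 14.9% in either direction. The median difference of the members was -0.79 on the log2 scale, against 0.06 for all genes tested. In 7 of the 8 the NKT arrays lay wholly below the CD4SP arrays, against 23.6% of all genes. Luxoid NKT stood at the same side of CD4SP: 6 members were lower, 0 higher and 2 did not pass, against 5.51% of all genes lower, 11.3% higher and 16.8% either way. Their median difference was -0.67, against 0.02 for all genes. Luxoid arrays lay wholly below CD4SP arrays in 6 members, against 20.6% of all genes, and wholly above them in 1, Gimap5, against 25.4%. These comparisons share the CD4SP arrays and are therefore not independent of each other. The members were chosen with earlier results of these data known.

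**Figure D1:**
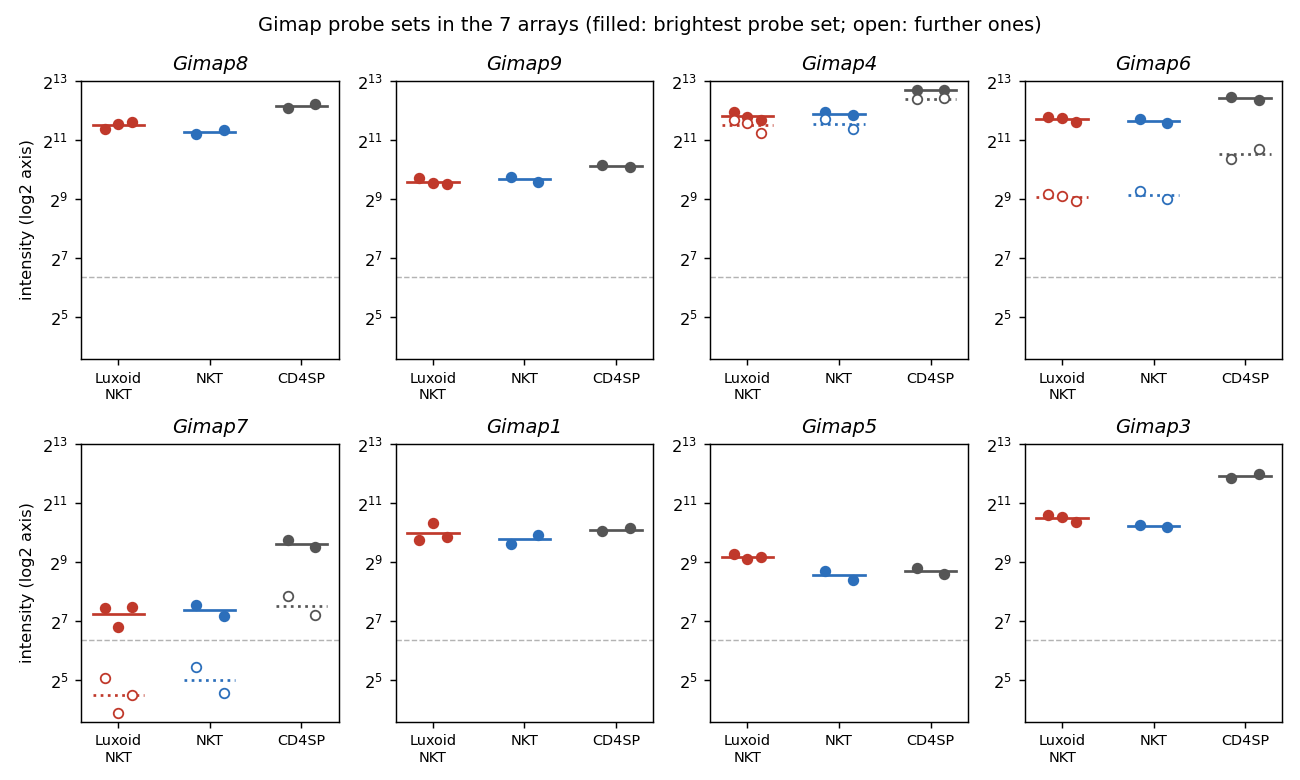
Intensity (log2 axis) of every Gimap probe set in each array, with Luxoid NKT (3 arrays), NKT (2) and CD4SP (2) from left to right and genes in chromosomal order. Points are arrays, horizontal bars are geometric means, open points and dotted bars are further probe sets, and the dashed line is the intensity filter of 82.0. CD4SP arrays lie above all NKT arrays except for Gimap5 and Gimap1.

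The members tied to survival were Gimap1, Gimap5 and Gimap3. Gimap3 is the close relative of Gimap5 and lies next to it. Both proteins have been reported to bind members of the Bcl2 family. Gimap3 read 1557, 1452 and 1314 in Luxoid NKT and 1210 and 1159 in NKT, against 3662 and 4016 in CD4SP. All 5 NKT arrays were far below both CD4SP arrays, and the Luxoid arrays were all above the unmutated ones. Gimap3 was 3.24-fold lower in NKT than in CD4SP (log2 difference -1.70 ± 0.15 SE, adjusted p = 0.000200 by limma) and 2.67-fold lower in Luxoid NKT (-1.42 ± 0.14, adjusted p = 0.000251). Among 10874 genes its difference was the 56th lowest for NKT and the 94th lowest for Luxoid NKT.

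Gimap5, which is found on lysosomes and is needed by T cells for their survival, did not follow its neighbour. It read 613, 542 and 576 in Luxoid NKT and 415 and 337 in NKT, against 446 and 382 in CD4SP. The Luxoid arrays stood above all the others, and the NKT and CD4SP arrays overlapped. NKT minus CD4SP was -0.14 ± 0.17 (adjusted p = 0.616, 95% interval -0.52 to 0.24). Luxoid NKT minus CD4SP was 0.48 ± 0.15 (adjusted p = 0.0652, interval 0.13 to 0.83), which did not pass the threshold of 0.05. The interval for NKT leaves out a fall as large as that of Gimap3, whose interval was -2.04 to -1.35. Gimap5 was read by 1 probe set only. RefSeq lists Gimap5 also as an older synonym of Gimap3, and the values here were matched by gene ID. Cross-hybridisation between probes of related Gimap genes, Gimap3 and Gimap5 included, was not examined.

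Gimap1, which mature T and B cells need to persist, read 864, 1266 and 921 in Luxoid NKT and 788 and 953 in NKT, against 1047 and 1134 in CD4SP. Luxoid array 2 exceeded both CD4SP arrays, so Luxoid NKT and CD4SP overlapped, while both NKT arrays were slightly below CD4SP. The differences were -0.33 ± 0.21 for NKT (adjusted p = 0.338, interval -0.81 to 0.15) and -0.12 ± 0.19 for Luxoid NKT (adjusted p = 0.722, interval -0.56 to 0.31). These intervals still allow changes of the size found for Gimap9.

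Gimap4 and Gimap6 have been linked to other steps. Gimap4 speeds the execution of T cell death, and Gimap6 binds Gabarapl2, a protein of autophagy. Gimap4 read 4007, 3490 and 3270 in Luxoid NKT and 3944 and 3676 in NKT, against 6612 and 6690 in CD4SP. The NKT groups ran through each other, and both were below CD4SP. Gimap4 was 1.75-fold lower in NKT than in CD4SP (-0.80 ± 0.15, adjusted p = 0.00990) and 1.86-fold lower in Luxoid NKT (-0.90 ± 0.14, adjusted p = 0.00322). Leaving out either NKT array or either CD4SP array took the call of NKT away (adjusted p = 0.0548 to 0.0706). Its dimmer probe set gave -0.86 and -0.91, almost the same sizes.

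Gimap6 read 3553, 3465 and 3156 in Luxoid NKT and 3381 and 3053 in NKT, against 5661 and 5286 in CD4SP. Here too the NKT groups overlapped and CD4SP stood above. Gimap6 was 1.70-fold lower in NKT (-0.77 ± 0.15, adjusted p = 0.00990) and 1.62-fold lower in Luxoid NKT (-0.69 ± 0.13, adjusted p = 0.00897). The call was lost for NKT without NKT array 2 (0.0730) or CD4SP array 1 (0.0657), and for Luxoid NKT without CD4SP array 1 (0.0722). The dimmer probe set of Gimap6 read 581, 555 and 493 in Luxoid NKT and 625 and 518 in NKT, against 1328 and 1650 in CD4SP. Over all probe sets tested, 3.43% were called lower in NKT and 4.96% lower in Luxoid NKT than in CD4SP. By the dimmer probe set the falls were larger, -1.38 ± 0.18 for NKT (adjusted p = 0.00240 over 20360 probe sets) and -1.45 ± 0.17 for Luxoid NKT (0.000899). The 2 probe sets of Gimap6 thus shared the direction and not the size.

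Gimap7, Gimap8 and Gimap9 are the remaining members. Human GIMAP7 is known to hydrolyse GTP when it dimerises, and Gimap8 is unusual in having more than 1 GTP-binding domain. Gimap7 read 174, 110 and 176 in Luxoid NKT and 188 and 143 in NKT, against 849 and 727 in CD4SP. It had the largest difference of the family in both comparisons with CD4SP. Gimap7 was 4.79-fold lower in NKT (-2.26 ± 0.25, adjusted p = 0.000701) and 5.24-fold lower in Luxoid NKT (-2.39 ± 0.23, adjusted p = 0.000251). These were the 25th and the 23rd lowest differences among 10874 genes. The second probe set of Gimap7 was under 82.0 in all 5 NKT arrays and at 228 and 147 in CD4SP, which makes it at least 2.23-fold lower in either NKT group than in CD4SP.

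Gimap8 read 2655, 3020 and 3107 in Luxoid NKT and 2338 and 2587 in NKT, against 4365 and 4774 in CD4SP. The 3 groups did not overlap, with CD4SP highest and NKT lowest. Gimap8 was 1.86-fold lower in NKT than in CD4SP (-0.89 ± 0.15, adjusted p = 0.00615) and 1.56-fold lower in Luxoid NKT (-0.64 ± 0.14, adjusted p = 0.0150). The call was lost for NKT without NKT array 1 (0.0587) or CD4SP array 2 (0.0528), and for Luxoid NKT without CD4SP array 1 (0.0605) or CD4SP array 2 (0.117).

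Gimap9 read 846, 754 and 729 in Luxoid NKT and 863 and 770 in NKT, against 1136 and 1099 in CD4SP. CD4SP was above every NKT array by a small margin. Against CD4SP, Gimap9 was 1.44-fold lower in Luxoid NKT (-0.53 ± 0.14, adjusted p = 0.0317), a call that was lost without any 1 of Luxoid arrays 2 and 3, both NKT arrays and both CD4SP arrays (0.0501 to 0.149). NKT minus CD4SP was -0.45 ± 0.15 and did not pass (adjusted p = 0.0792).

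**Figure D2:**
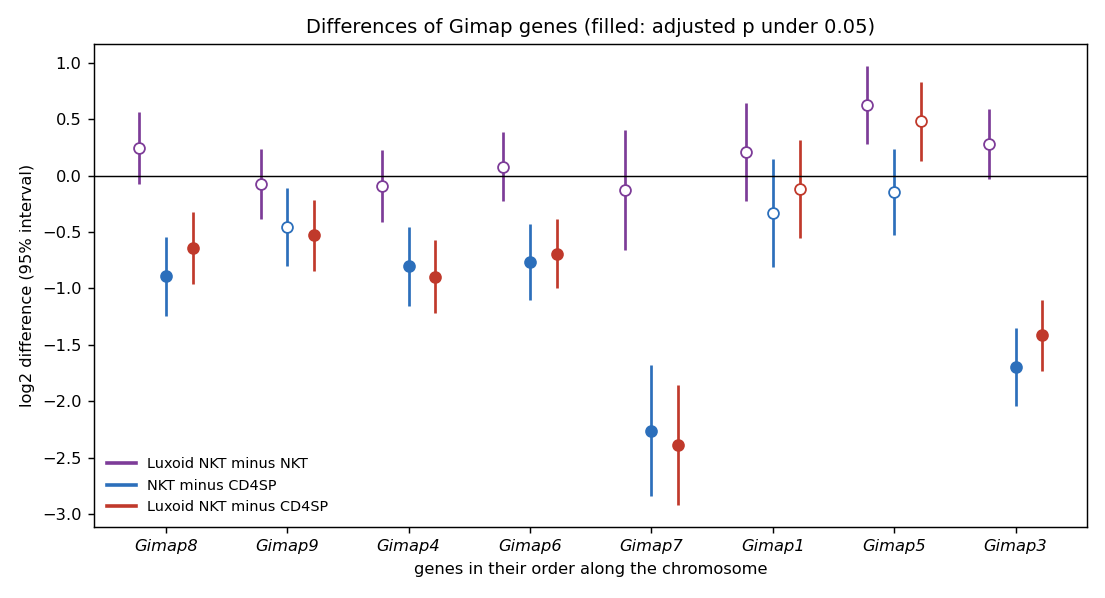
Log2 differences of the 8 genes (main probe set) with 95% intervals from limma, by comparison, in chromosomal order. Filled points passed an adjusted p of 0.05. Gimap7 (-2.26 and -2.39) and Gimap3 (-1.70 and -1.42) lie lowest against CD4SP, and all 8 differences between Luxoid NKT and NKT are open points.

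The comparison of Luxoid with unmutated NKT asked which transcripts differed between stage 1 NKT with and without the Luxoid mutation. The pools also differed in sex, as given above. No member of the family was called: 0 of 8 passed with limma, against 1.55% of all genes (0.901% higher and 0.653% lower), and 1 of 8 had an unadjusted p under 0.05, against 11.6% of all genes (1261 of 10874). The median difference was 0.14, against -0.03 for all genes, with 5 members above 0 and 3 below. The lowest p was that of Gimap5, whose mean was 576 in Luxoid NKT and 374 in NKT (difference 0.62 ± 0.15, interval 0.28 to 0.97, adjusted p = 0.112), with all 3 Luxoid arrays above both NKT arrays. With mean Y-linked expression as a covariate this difference was 0.65 and its adjusted p 0.0400, in a range of 0.0400 to 0.636 over all 18 alternatives. Its difference was the 243rd highest among 10874 genes. Among the markers, Cd8a differed between the same groups, at 144, 184 and 152 in Luxoid NKT and 82.3 and 93.6 in NKT (0.86 ± 0.16, adjusted p = 0.0342). Its NKT values lay close to the intensity filter, where levels are uncertain. The other tested markers of double-positive thymocytes were not called, at 0.24 for Cd8b1 and 0.53 for Dntt. Rag1, Rag2, Ptcra and Arpp21 were not tested. The sum of mature NKT markers given above was higher in all 3 Luxoid arrays through Il2rb, which read 3285, 3812 and 3240 in Luxoid NKT and 1472 and 2095 in NKT (0.97 ± 0.18, adjusted p = 0.0389). The other 3 markers of that list were not called, at 0.29 for Nkg7, -0.48 for Tbx21 and -0.22 for Cd44, and the median of the list was 0.04. The part of these markers in the difference of Gimap5 was not tested.

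The Luxoid arrays lay wholly above the NKT arrays in 3 of 8 members (Gimap3, Gimap5 and Gimap8), against 10.1% of all genes. Gimap3 differed by 0.28 ± 0.14 (adjusted p = 0.496) and Gimap8 by 0.25 ± 0.14 (0.572). Gimap1 differed by 0.21 ± 0.19 (adjusted p = 0.760 by limma, interval -0.22 to 0.65). For Gimap4, Gimap6, Gimap7 and Gimap9 the differences were -0.13 to 0.08. The interval of Gimap7 was -0.66 to 0.40 and that of Gimap4 -0.41 to 0.23. The intervals of Gimap1, Gimap7 and Gimap4 allow changes in either direction.

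The spread within groups was small beside the differences from CD4SP for Gimap3 and Gimap7. Over the main probe sets the SD of log2 values was 0.09 to 0.38 in Luxoid NKT (n = 3), 0.04 to 0.28 in NKT (n = 2) and 0.01 to 0.16 in CD4SP (n = 2). The number of arrays limits the precision, and replicates are labelled as biological.

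Genes beside the cluster were read to see whether the fall reached past it. Of the 5 nearest protein-coding genes on either side, 8 of 10 were on the array and 7 passed the filter. None was called lower than in CD4SP, against 4.08% of all genes for NKT and 5.51% for Luxoid NKT. So few genes cannot decide by count whether the fall stopped at the cluster. In both comparisons 1 was called higher, against 10.8% of all genes for NKT and 11.3% for Luxoid NKT. It was Repin1, a zinc finger gene on the Gimap8 side, at 573, 597 and 563 in Luxoid NKT and 443 and 452 in NKT, against 149 and 156 in CD4SP. Against CD4SP, Repin1 was 3.79-fold higher in Luxoid NKT (1.92 ± 0.12, adjusted p = 2.71e-05) and 2.93-fold higher in NKT (1.55 ± 0.14, adjusted p = 0.000194). With the mean of its probe sets these differences were 1.14 and 0.78. Zfp775, which stands between Repin1 and Gimap8, differed by 0.04 ± 0.24 in NKT (adjusted p = 0.933). On the other side Tmem176b, a membrane protein gene next to Gimap3, read 84.7, 66.3 and 88.5 in Luxoid NKT and 123 and 159 in NKT, against 112 and 131 in CD4SP. Its Luxoid difference from NKT was -0.82 ± 0.18 (adjusted p = 0.0822, and 0.0477 to 0.575 over its 17 alternatives), and that from CD4SP was -0.61 ± 0.18 (adjusted p = 0.0546, and 0.0391 to 0.298).

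**Figure D3:**
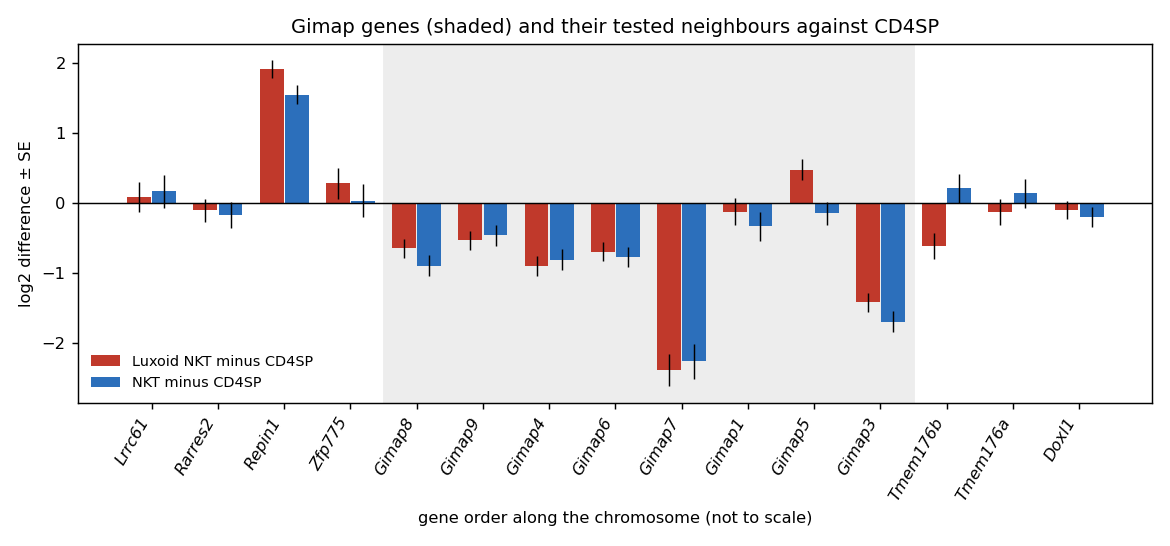
Log2 differences from CD4SP ± SE of the Gimap genes (shaded) and their tested neighbours in gene order, not to scale, with Luxoid NKT left of NKT. Bars fall below 0 for most Gimap genes, lie at 0.29 and 0.04 for Zfp775 and rise for Repin1 (1.92 and 1.55).

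Partners of the family were read as a list of 16 genes of the Bcl2 family, autophagy and survival signalling, of which 14 were tested. The list was chosen with earlier results of these data known, so its counts are descriptions. Against CD4SP, 3 rose and 3 fell in NKT (median 0.11), and 2 rose and 2 fell in Luxoid NKT (median 0.00461). Of all genes, 10.8% were called higher and 4.08% lower in NKT, and 11.3% higher and 5.51% lower in Luxoid NKT. When 1 array was left out, the counts of the list were 0 to 3 and 1 to 3 for NKT. For Luxoid NKT they were 1 in every case and 0 to 1. Bcl2l11, which encodes the pro-death protein Bim, was 3.68-fold lower in NKT (-1.88 ± 0.24, adjusted p = 0.00135) and 2.27-fold lower in Luxoid NKT (-1.18 ± 0.22, 0.00675, and 0.0779 without CD4SP array 2). Bcl2, the pro-survival founder of its family, read 4171 and 3655 in NKT, against 6636 and 7046 in CD4SP (-0.81 ± 0.15, adjusted p = 0.00873, and up to 0.0692 without NKT array 2 or CD4SP array 2). Bid and Bak1, which promote cell death at mitochondria, were higher in NKT than in CD4SP (0.90 ± 0.25, adjusted p = 0.0467, and 0.67 ± 0.15, 0.0201), with adjusted p of up to 0.269 and 0.125 over the alternatives. Gfi1, a transcriptional repressor of lymphocytes, read 930, 999 and 974 in Luxoid NKT, against 338 and 420 in CD4SP (1.36 ± 0.16, adjusted p = 0.000632). In NKT its difference was 0.87 ± 0.17 (adjusted p = 0.0111), a call kept in 16 of 18 alternatives. Luxoid NKT also differed from CD4SP in Bcl2 (-0.51 ± 0.14, adjusted p = 0.0369) and Bak1 (0.51 ± 0.14, 0.0378). Each of these Luxoid calls was kept in 8 of 18 alternatives. None of the 14 passed between Luxoid NKT and NKT, against 1.55% of all genes.

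Genes of naive T cell quiescence and recirculation, a further list of 16 with 14 tested, held more falls than rises. This list too was chosen with earlier results of these data known, so its counts are descriptions. In NKT 7 fell and 1 rose against CD4SP (median -0.73), and in Luxoid NKT 7 fell and 1 rose (median -0.50). Of all genes, 4.08% were called lower and 10.8% higher in NKT, and 5.51% lower and 11.3% higher in Luxoid NKT. Leaving out 1 array gave 4 to 7 falls for NKT and 3 to 7 for Luxoid NKT. Bach2, a repressor of effector differentiation, differed by -2.71 ± 0.22 in NKT and -1.78 ± 0.20 in Luxoid NKT. Ccr7, a receptor that guides T cells to lymph nodes, differed by -1.14 ± 0.15 and -1.06 ± 0.13. Foxp1, a factor that keeps naive T cells quiescent, differed by -1.16 ± 0.17 in NKT and -0.79 ± 0.16 in Luxoid NKT. Satb1, a chromatin organiser of thymocytes, differed by -1.04 ± 0.15 in NKT and -1.18 ± 0.14 in Luxoid NKT. The Luxoid call of Foxp1 was kept in 17 of 18 alternatives. Tob1, an antiproliferative gene, was the gene that rose in both (1.32 ± 0.20 in NKT and 1.04 ± 0.19 in Luxoid NKT, the second not called without CD4SP array 2, 0.0612). Between Luxoid NKT and NKT 0 of the 14 passed, against 1.55% of all genes. But the trend model and the Y-linked covariate each called 2 higher, Bach2 and S1pr1, and the replicate block called 1 higher, Bach2. Bach2 differed by 0.93 ± 0.20 between these groups (adjusted p = 0.0760, and 0.0248 to 0.544 over 18 alternatives). S1pr1, a receptor for exit from the thymus, differed by 0.73 (adjusted p = 0.0918, at the lowest 0.0392). Against CD4SP, S1pr1 was called lower in NKT (-0.96 ± 0.18, adjusted p = 0.0103 by limma) and was not called in Luxoid NKT (-0.22 ± 0.17, 0.424).

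The pattern of the family over the 7 arrays was also set against other genes. The log2 values of each member were standardised and averaged, and this mean was 1.09 and 1.05 in the CD4SP arrays, and below 0 in all NKT arrays. Among 1088 genes whose group means spanned at least 1 on the log2 scale, the closest by Pearson correlation over 7 arrays were Gpr132 (0.996), Mxd4 (0.991), Ift80 (0.990), Cd5 (0.989) and Rgmb (0.989). These correlations mostly reflect the gap between CD4SP and NKT arrays and are descriptions. Gpr132, a G protein-coupled receptor gene, read 454, 512 and 437 in Luxoid NKT and 317 and 287 in NKT, against 1299 and 1329 in CD4SP. Cd5, an inhibitor of T cell receptor signalling, read 1706, 1568 and 1358 in Luxoid NKT and 1396 and 1215 in NKT, against 2792 and 2854 in CD4SP. Mxd4 averaged 2549 in Luxoid NKT and 2118 in NKT, against 4414 in CD4SP, and its call for Luxoid NKT was lost without either CD4SP array or with the mean of its probe sets (adjusted p of up to 0.107). Within the family, a member's correlation with the mean of the others was 0.853 to 0.988 for the 6 members other than Gimap1 (0.393) and Gimap5 (-0.261).

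**Figure D4:**
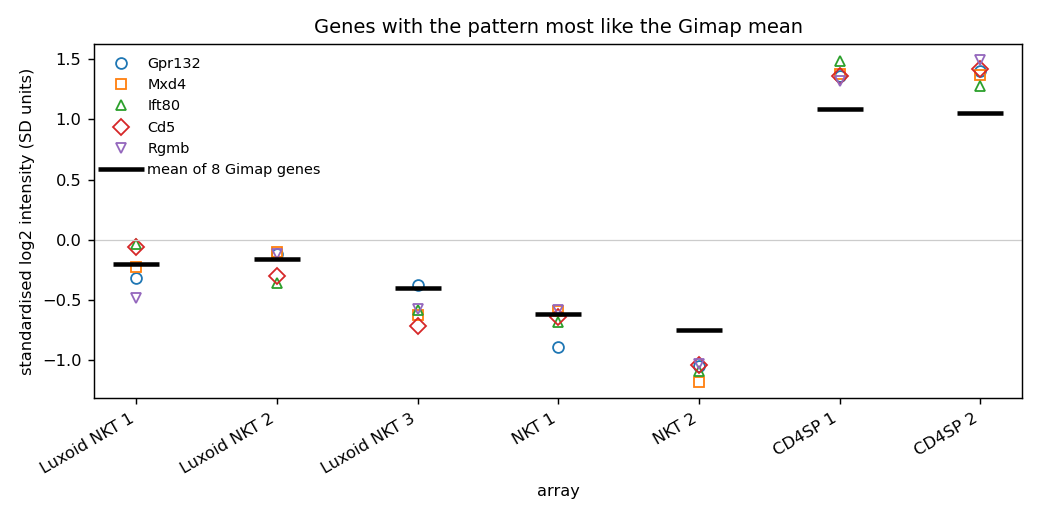
Standardised log2 intensity (SD units over the 7 arrays) of the 5 genes most like the family mean, with Luxoid NKT, NKT and CD4SP arrays from left to right. Black bars are the mean of the 8 Gimap genes, at 1.09 and 1.05 in CD4SP and below 0 elsewhere, and the 5 genes follow it.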

How the data were processed

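Gene expression was measured on single-colour Affymetrix mouse expression arrays. Per the labels' protocols, RNA of sorted cells was amplified and turned into biotin-labelled cDNA. The authors deposited linear intensities of 3.08 to 20875. Per the submitters' processing notes they used RMA and Affymetrix Expression Console, with no version stated there. The RMA method equalises the distributions of arrays and compresses differences of dim probe sets. All values were put on the log2 scale before testing, log2 of the deposited intensity.

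GEO's platform annotation gave the gene names: of 45037 probe sets, 34945 had 1 symbol, 932 several and 9160 none listed. By gene ID 34741 matched RefSeq, which changed 0 symbols. The brightest probe set stood for a gene, and 10874 genes passed a filter, an intensity of 82.0 on at least 2 arrays, which is the median of the whole table. With limma 3.58.1 (R 4.3.3; lmFit and eBayes), group means were fitted over the 7 arrays together, so that groups shared 1 spread. P-values were two-sided and adjusted by Benjamini-Hochberg over all genes. Further probe sets were tested in a fit of 20360 probe sets. Folds against a group with all arrays under 82.0 are bounds against that value. As a check of the code, the fit was also run on simulated data with noise independent between arrays. Deviations of same-numbered arrays were correlated in the real data, as given below, so the simulation does not check error rates here.

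Members and lists were chosen with earlier results of these data known. The named genes are all members, up to 4 called genes per list and comparison with the largest changes, tested neighbours, the 5 genes of most like pattern, and Zbtb16. Bcl2, Gfi1, Cd5 and the others in the text come from this rule, and Dntt, Cd8a, Il2rb, Kdm5d and their like from the marker lists. S1pr1 was added after its values were seen. The Y-linked covariate used Kdm5d, Eif2s3y and Uty, since Ddx3y was not named here. Promoter sequences are from RefSeq (GRCm38.p6), for all 8 genes. Motifs were searched on both strands after the expression values were seen.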

Additional observations from a re-analysis of the deposited data

How the results depend on the processing

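Over 18 alternatives, 432 values of the members were recomputed, of which 401 kept their direction and side of the threshold, 18 lost and 9 gained a call, and 4 turned. Gimap3 and Gimap7 kept their calls against CD4SP under all 18, for both NKT groups, with adjusted p of at most 0.0119. The values that turned were not called in either form: with 1 array left out, Luxoid minus NKT ran between -0.32 and 0.0937 for Gimap7 (above 0 without Luxoid array 2 or NKT array 1) and between -0.16 and 0.00801 for Gimap9 (above 0 without NKT array 1), and NKT minus CD4SP ran between -0.29 and 0.00731 for Gimap5 (above 0 without NKT array 2). The count of called members was 0 to 0 for Luxoid against NKT, 3 to 5 for NKT against CD4SP and 3 to 6 for Luxoid against CD4SP when 1 array was left out. All genes called were then 49 to 176, 635 to 1848 and 839 to 1737, against 169, 1621 and 1831 with all arrays. The fits with fewer arrays estimate the spread from fewer values, and a lone array was assumed to vary like the other groups. With the Y-linked covariate 1 member, Gimap5, was called between Luxoid NKT and NKT. Gimap5 passed for Luxoid NKT against CD4SP in 5 alternatives: median centring (0.0416), the stricter filter at 307 (0.0496), the mean of probe sets (0.0435), the replicate block (0.0344) and the Y-linked covariate (0.0209). Gimap9 passed for NKT against CD4SP with quantile normalization once more (0.0356), the replicate block (0.0379) and the Y-linked covariate (0.0395), and for Luxoid NKT it missed with only the 2 groups compared (0.0507). The cause was not tested.

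The replicate numbers are not stated to pair samples. Deviations of same-numbered arrays from their group means correlated at 0.334 to 0.491, and arrays numbered 1 shared the lack of Y-linked signal. With the replicate number as a block 2616 genes were called for NKT against CD4SP. In that fit Luxoid array 3 had a number of its own and added nothing. With settings other than leaving out an array, the other counts of all genes called stayed within 1.5 times. So did the counts of called members against CD4SP. Called members between Luxoid NKT and NKT went from 0 to 1 with the Y-linked covariate. Leaving out an array moved some of these counts further, as given above. Some counts of the smaller lists also moved further. For Luxoid NKT against NKT, the quiescence list had 0 higher, and 2 with the trend model or the Y-linked covariate and 1 with the block. With settings other than leaving out an array, the survival list ran from 1 to 3 higher and 1 to 4 lower for Luxoid NKT against CD4SP (2 and 2 in the report), and from 2 to 4 higher for NKT (3 in the report). Of the neighbours, 1 was lower in Luxoid NKT than in CD4SP with the mean of probe sets or the block, and than in NKT with the mean of probe sets, against 0 in the report. Without detection calls, levels near 82.0 are uncertain, which touches the second probe set of Gimap7 and the NKT levels of Gimap7. It also touches Tmem176b in Luxoid NKT, Cd8a in NKT, Cd79b in CD4SP, and Dntt, Cd8b1, Cd79a and Rgmb in both NKT groups.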
